A study of Mus musculus with 12 samples.

Results

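Expression of 10 genes that make, move, break down or sense prostaglandin E2 was followed across 4 mouse melanoma cell lines by RNA sequencing. The genes were Ptgs1, Ptgs2, Ptges, Ptges2, Ptges3, Hpgd, Slco2a1, Abcc4, Ptger2 and Ptger4, listed by name as genes of this pathway, out of 55471 gene identifiers in each count file. The lines were MeVa2.1.dOVA, MeVa2.1, MeVa2.2.dOVA and MeVa2.2, each with 3 libraries and each labelled as wild type, untreated and taken from a subcutaneous skin tumour. Mouse strain, driver mutations and the meaning of dOVA are not spelled out in the labels, and each dOVA line is set here against the line whose name it extends. The series title describes MeVa2.1.dOVA as immune-refractory. Each name stands for 1 cell line. The labels do not say if the replicates are independent cultures, and every p-value here reflects library-to-library spread that may be technical.

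Prostaglandin E2 is made in steps. Phospholipases free arachidonic acid from membranes, the cyclooxygenases Ptgs1 (constitutive in many tissues) and Ptgs2 (inducible) turn it into prostaglandin H2, and prostaglandin E synthases convert that to prostaglandin E2. The lipid leaves cells partly through the ABC transporter Abcc4, is taken back up by the carrier Slco2a1 and is inactivated by the dehydrogenase Hpgd. It acts on G-protein-coupled receptors, of which Ptger2 and Ptger4 raise cyclic AMP. In tumours, prostaglandin E2 from cancer cells is known to dampen dendritic cell, natural killer cell and T cell responses.

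Gene counts per library totalled 16181816 to 35627069, with the highest total of each line in replicate 3. Melanocyte markers were low, with a sum over 7 genes of 9.07 to 58.3 CPM (counts after scaling the gene total of a library to 1000000), while of 2 dedifferentiated melanoma markers Axl held 1243 to 1844 CPM and Ngfr at most 6.05 CPM. Leukocyte markers summed to 3.68 to 17.2 CPM over 14 genes, of which 5 to 8 had no count in a given line. Ptprc, the pan-leukocyte marker, did not exceed 0.237 CPM, while Cd14 held 1.44 to 12.1 CPM and Cd68 1.26 to 4.13 CPM. Some libraries stood apart. Replicate 2 of MeVa2.2 correlated at 0.969 (log2 CPM over tested genes) with a MeVa2.2.dOVA library and at most at 0.956 with its own line, and replicate 3 of MeVa2.1 at 0.979 with a MeVa2.1.dOVA library against at most 0.969 with its own. Replicate 2 of MeVa2.1.dOVA correlated at 0.956 and 0.958 with its line, whose other libraries correlated at 0.983. In bulk RNA, fewer cells expressing a gene and less RNA per cell cannot be told apart.

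Ptgs2 was the most abundant of the 10 genes per length, and the receptors, the uptake carrier and the inducible synthase were the scarcest of those detected. Per kilobase of annotated exon, the mean over the 12 libraries was 258 CPM for Ptgs2, 56.6 for Ptgs1, 55.1 for Ptges3, 16.4 for Abcc4, 3.51 for Ptges2, 0.792 for Ptges, 0.459 for Ptger4, 0.170 for Slco2a1 and 0.149 for Ptger2, while Hpgd had no count. Of the 10 genes, 9 passed the filter on low counts. Ptger2 passed it through its MeVa2.1 libraries alone, so it had to differ, and it is left out of the counts of members that follow in these results. Ptges passed it through libraries of the parental lines, with no dOVA library at the filter's level, so its place among called genes is no independent support. The members were chosen with earlier results of these data known, so a share above that of all tested genes is no independent support either. The test for any difference among the 4 lines was an edgeR quasi-likelihood F test (Benjamini-Hochberg adjusted p under 0.05 over 13985 genes). It called 4 of the 8 members other than Ptger2, where 14.2% of all tested genes were called. These were Slco2a1 (adjusted p = 4.81e-04), Ptges (0.00128), Ptger4 (0.0151) and Ptgs1 (0.0399). Slco2a1 and Ptges stayed under the threshold whichever of the 12 libraries was left out, Ptger4 in 11 of 12 cases (0.0516 without replicate 1 of MeVa2.2.dOVA). Ptgs1 stayed under it in 5 of 12 cases, and exceeded it without replicates 1 or 2 of MeVa2.1, replicate 3 of MeVa2.1.dOVA or MeVa2.2, or any library of MeVa2.2.dOVA (0.0515 to 0.119). Ptges3 (0.101), Ptges2 (0.341), Abcc4 (0.547) and Ptgs2 (0.878) were not called.

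**Figure D1:**
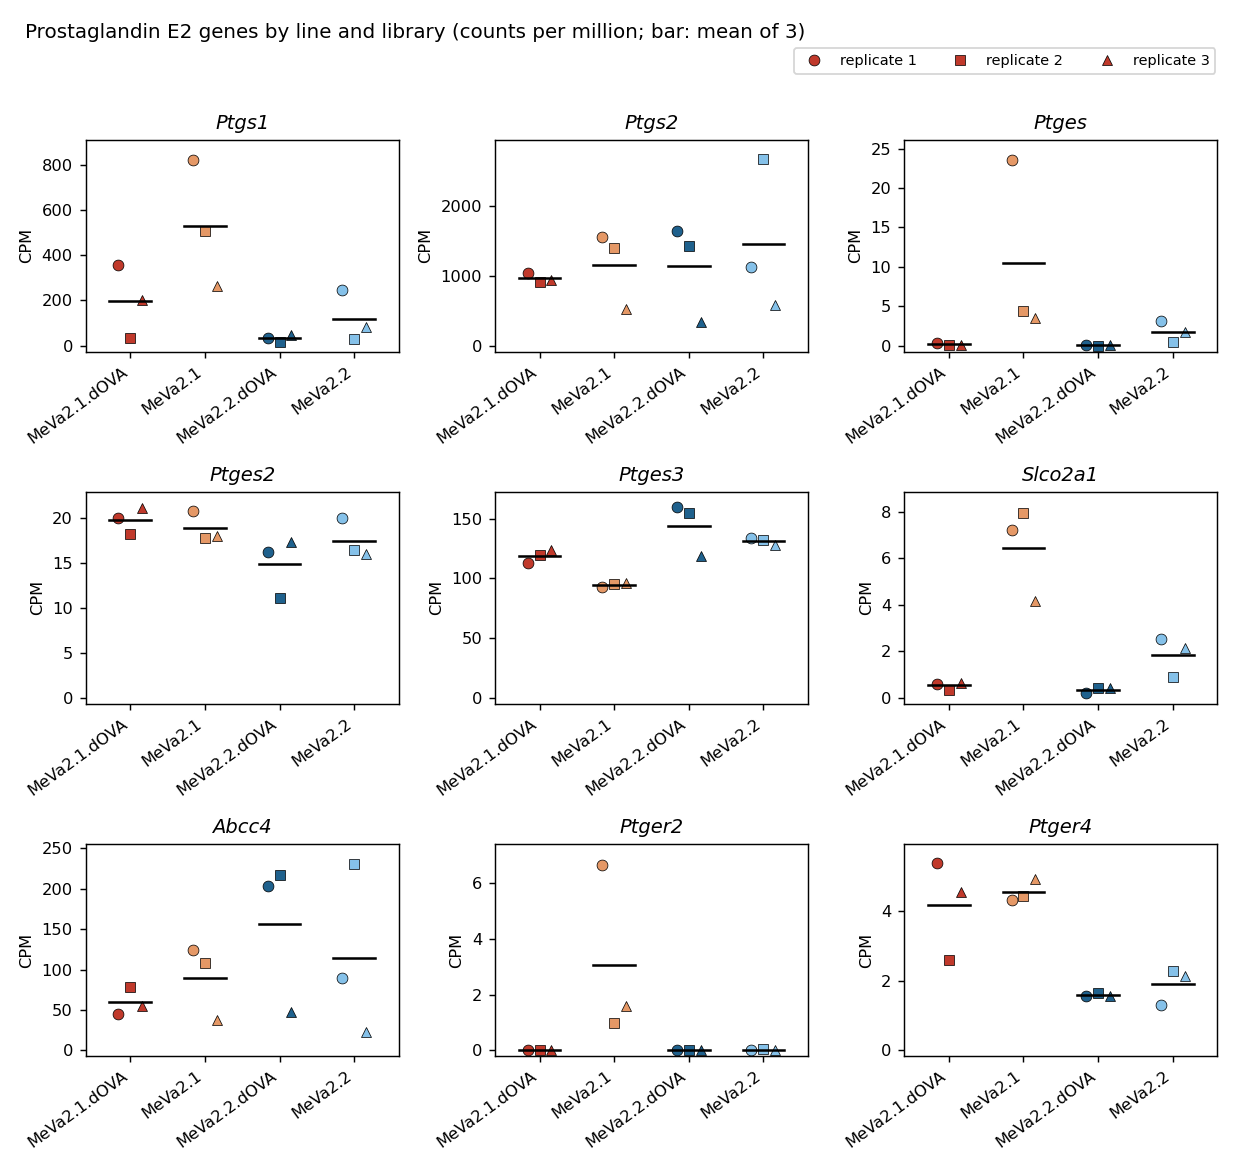
Level of the 9 detected genes in each library, as CPM on a linear axis with its own scale per gene. Symbols mark the replicate number and bars the mean of 3 libraries. Ptges and Slco2a1 sit lower in both dOVA lines than in their parents, Ptger2 is seen in MeVa2.1 apart from 1 count in MeVa2.2, and the Ptgs2 libraries of the 4 lines overlap.

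The promoters of both cyclooxygenases and of the pair Ptges and Slco2a1 are shown because the first pair contrasts a gene whose libraries overlapped between all lines with one called for a difference among them, and the second pair fell together in both dOVA lines. Sequences are RefSeq windows on GRCm38.p6 from 250 bases before to 50 after the RefSeq start, read 5′ to 3′ along the gene. All 10 genes matched an entry. For Ptges and Slco2a1 this start lies inside the wider gene span of the annotation used for positions. Capitals mark matches, on either strand, to 5 motifs: the TATA box TATAAA, the GC box GGGCGG, the cAMP response element core TGACGT, the E-box CACGTG and the C/EBP palindrome TTGCGCAA. The NF-kB consensus was searched as well.
Ptgs2 promoter, chr1:150099781-150100080, plus strand: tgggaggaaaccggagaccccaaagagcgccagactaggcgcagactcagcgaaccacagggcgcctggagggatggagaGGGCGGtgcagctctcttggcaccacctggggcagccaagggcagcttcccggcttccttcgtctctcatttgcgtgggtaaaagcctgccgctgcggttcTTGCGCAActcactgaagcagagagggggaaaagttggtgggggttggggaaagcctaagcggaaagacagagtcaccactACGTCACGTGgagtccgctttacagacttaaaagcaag
Ptgs1 promoter, chr2:36230176-36230475, plus strand: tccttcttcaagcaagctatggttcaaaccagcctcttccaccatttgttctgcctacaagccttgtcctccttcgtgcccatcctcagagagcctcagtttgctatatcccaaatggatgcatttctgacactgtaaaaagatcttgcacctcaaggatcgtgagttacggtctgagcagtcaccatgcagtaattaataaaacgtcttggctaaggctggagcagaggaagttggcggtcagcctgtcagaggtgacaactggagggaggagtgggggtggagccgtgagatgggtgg
Ptges promoter, chr2:30903248-30903547, minus strand: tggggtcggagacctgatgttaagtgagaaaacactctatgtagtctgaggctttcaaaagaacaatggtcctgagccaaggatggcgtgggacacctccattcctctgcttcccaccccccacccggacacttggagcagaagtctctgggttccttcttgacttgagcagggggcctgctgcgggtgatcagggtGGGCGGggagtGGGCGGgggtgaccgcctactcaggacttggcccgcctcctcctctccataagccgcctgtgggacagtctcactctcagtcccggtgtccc
Slco2a1 promoter, chr9:103008237-103008536, plus strand: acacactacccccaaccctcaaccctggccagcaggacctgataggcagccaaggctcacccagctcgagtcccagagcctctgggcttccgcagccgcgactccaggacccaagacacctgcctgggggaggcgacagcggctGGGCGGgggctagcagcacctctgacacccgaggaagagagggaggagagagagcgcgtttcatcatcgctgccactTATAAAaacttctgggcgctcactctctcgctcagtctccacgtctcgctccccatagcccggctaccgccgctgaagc

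In the Ptgs2 window stood a GC box, the C/EBP palindrome and a cAMP response element core read on the opposite strand. This core shares bases with an E-box just after the RefSeq start that set the window. Over all 32851 promoter windows, the 4 motifs were present in 35.7% (GC box), 0.183% (C/EBP palindrome), 7.51% (cAMP response element core) and 7.15% (E-box). The Ptgs1 window held none of the motifs searched. The Ptges window held 2 GC boxes, and the Slco2a1 window held 1 GC box and a TATA box 29 to 24 bases before the start, a motif found in 13.6% of windows. The NF-kB consensus, present in 4.51% of windows, was found in none of the 4. These matches describe letters in the windows, and neither binding nor the start of transcription in these lines was measured.

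Ptgs2, the inducible cyclooxygenase (chromosome 1, 150100031 to 150108227 on GRCm38), was the most abundant member and its level overlapped between all lines. It had 1038, 910.0 and 946 CPM in replicates 1, 2 and 3 of MeVa2.1.dOVA, against 1556, 1392 and 531 CPM in MeVa2.1. It had 1642, 1421 and 343 CPM in MeVa2.2.dOVA, against 1132, 2665 and 586 CPM in MeVa2.2. MeVa2.1.dOVA was the least variable line, at 965 ± 65.8 CPM (SD, n = 3), against 1159.7 ± 551 in MeVa2.1, 1135 ± 695 in MeVa2.2.dOVA and 1461 ± 1078 in MeVa2.2. Replicate 3 was the lowest library in each of the other lines. The fitted log2 fold change was -0.29 (approximate 95% interval -1.67 to 1.09, adjusted p = 0.909) for MeVa2.1.dOVA over MeVa2.1 and -0.38 (-1.76 to 1.0, adjusted p = 0.791) for MeVa2.2.dOVA over MeVa2.2. These intervals reach 2-fold either way, so they do not exclude a difference of that size. The sign of the MeVa2.2.dOVA difference turned to 0.41 without replicate 2 of MeVa2.2.

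Ptgs1, the cyclooxygenase of the constitutive branch (chromosome 2, 36230426 to 36252272), varied more between lines and libraries than Ptgs2, with a range of line means of 4.07 on the log2 scale against 0.41 for Ptgs2. It had 357, 35.0 and 201.5 CPM in MeVa2.1.dOVA, against 819.9, 506 and 264 CPM in MeVa2.1. It had 35.5, 14.3 and 48.7 CPM in MeVa2.2.dOVA, against 245, 28.1 and 81.8 CPM in MeVa2.2. Each dOVA line was lower than its parent in 3 of 3 same-numbered libraries, a pairing that no label gives. Libraries overlapped in both comparisons of a dOVA line with its parent. The log2 fold change was -1.45 (SE 0.84, adjusted p = 0.563) in MeVa2.1.dOVA and -1.88 (SE 0.85, adjusted p = 0.300) in MeVa2.2.dOVA, neither past the threshold. Between origins, all MeVa2.1 libraries were above all MeVa2.2 libraries, with a log2 fold change of 2.21 (SE 0.86, adjusted p = 0.198) and of 2.74 (adjusted p = 0.0215) with the replicate number as a block. MeVa2.1.dOVA over MeVa2.2.dOVA gave 2.63 (SE 0.87, adjusted p = 0.0782) and 2.29 (adjusted p = 0.0232) with the block. The MeVa2.1.dOVA and MeVa2.2.dOVA libraries overlapped through replicate 2 of MeVa2.1.dOVA, and without that library the adjusted p was 0.0329. Replicate 2 was the lowest library for Ptgs1 in every line but MeVa2.1.

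Set against each other per kilobase of exon, Ptgs1 made up 28.9%, 4.34% and 20.1% of the summed cyclooxygenase signal in MeVa2.1.dOVA, against 38.3%, 30.0% and 37.0% in MeVa2.1. The share was 2.49%, 1.18% and 14.4% in MeVa2.2.dOVA, against 20.3%, 1.23% and 14.1% in MeVa2.2. Ptgs2 was the larger part in all 12 libraries. The mean share was 17.8% ± 12.4 in MeVa2.1.dOVA, 35.1% ± 4.47 in MeVa2.1, 6.01% ± 7.27 in MeVa2.2.dOVA and 11.9% ± 9.74 in MeVa2.2 (SD, n = 3). No library of MeVa2.1 overlapped with MeVa2.1.dOVA or MeVa2.2, and with 3 libraries against 3 an exact permutation test cannot give a two-sided p under 0.1.

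**Figure D2:**
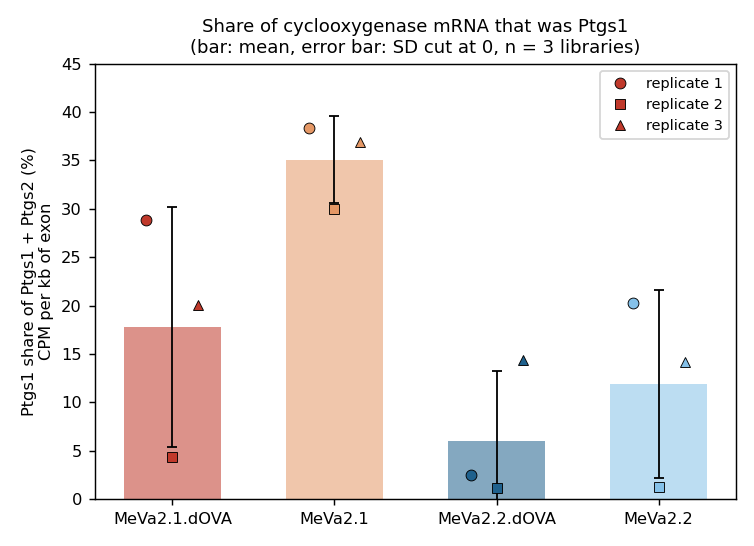
Ptgs1 as a percentage of Ptgs1 plus Ptgs2 (CPM per kilobase of exon) in each library, with bars at the mean of 3 libraries and error bars of 1 SD, drawn down to 0 at most. MeVa2.1 libraries lie between 30.0% and 38.3%, above all libraries of the other lines.

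Ptges, the inducible microsomal prostaglandin E synthase (chromosome 2, 30889471 to 30929863), was nearly silent in both dOVA lines. It had 0.371, 0.0574 and 0.0863 CPM in MeVa2.1.dOVA (10 counts in all), against 23.5, 4.43 and 3.45 CPM in MeVa2.1 (643 counts). It had 0.0539, 0 and 0.0297 CPM in MeVa2.2.dOVA (2 counts), against 3.14, 0.527 and 1.71 CPM in MeVa2.2 (108 counts). Neither pair of lines overlapped, and replicate 1 was the highest library in every line. In MeVa2.1.dOVA, Ptges fell by 6.02 on the log2 scale (SE 1.04, adjusted p = 0.0364), and with the block it fell by 5.83 (adjusted p = 0.00226). Ptges fell in MeVa2.2.dOVA as well (adjusted p = 0.0417). It had passed the filter on low counts through parental libraries alone, which favoured a lower dOVA value. The p-values of both dOVA comparisons are thus no independent support. In MeVa2.2.dOVA the fitted fold change, -5.76, depends on 2 counts. The ratio of pooled counts over pooled gene totals, MeVa2.2 over MeVa2.2.dOVA, was 61.6 (95% counting interval 16.7 to 516). The parental difference, 2.57 for MeVa2.1 over MeVa2.2 without overlap, had an adjusted p of 0.119 and of 0.00666 with the block. Between the dOVA lines the same kind of ratio, MeVa2.1.dOVA over MeVa2.2.dOVA, 10 counts against 2, was 5.19 (95% counting interval 1.11 to 48.7). Such intervals leave out the spread between libraries. The edgeR test of the fitted difference gave an adjusted p of 0.334.

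Both calls on Ptges were lost in several fits with 1 library left out. For MeVa2.1.dOVA, the log2 fold change stayed between -7.02 and -4.60 whichever library was left out, but the adjusted p exceeded 0.05 in 7 of 12 cases, from 0.0507 without replicate 2 of MeVa2.2.dOVA to 0.212 without replicate 3 of MeVa2.1.dOVA. The others were replicates 1 and 2 of MeVa2.1.dOVA, replicates 1 and 2 of MeVa2.1 and replicate 1 of MeVa2.2.dOVA. Without both replicate 2 of MeVa2.1.dOVA and replicate 2 of MeVa2.2 it was -5.69 (adjusted p = 0.131). For MeVa2.2.dOVA, the log2 fold change stayed between -6.23 and -5.13, and the adjusted p exceeded 0.05 without any library of MeVa2.2.dOVA (up to 0.156), replicates 1 or 3 of MeVa2.2, replicate 2 of MeVa2.1 or replicate 3 of MeVa2.1.dOVA, and was 0.0256 without replicate 2 of MeVa2.2.

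The other E synthases did not share this pattern. Ptges2, another membrane-associated synthase (chromosome 2, 32395896 to 32405772), had 20.0, 18.2 and 21.1 CPM in MeVa2.1.dOVA, against 20.8, 17.8 and 18.0 CPM in MeVa2.1, and 16.3, 11.1 and 17.4 CPM in MeVa2.2.dOVA, against 20.0, 16.4 and 16.0 CPM in MeVa2.2. Its log2 fold change was 0.06 (interval -0.37 to 0.48, adjusted p = 0.943) in MeVa2.1.dOVA and -0.26 (-0.68 to 0.17, adjusted p = 0.538) in MeVa2.2.dOVA, so that a change of 2-fold lay outside both intervals. Ptges3, the cytosolic synthase and Hsp90 co-chaperone p23 (chromosome 10, 128058954 to 128077272), had 113, 119.7 and 124 CPM in MeVa2.1.dOVA, against 93.0, 95.3 and 96.0 CPM in MeVa2.1, with no overlap and a log2 fold change of 0.31 (SE 0.16, adjusted p = 0.503). It had 159, 154 and 119 CPM in MeVa2.2.dOVA, against 134, 132 and 128 CPM in MeVa2.2 (0.12, adjusted p = 0.745). MeVa2.1 was below MeVa2.2 in every library (-0.45, SE 0.16, adjusted p = 0.150). A processed copy, Ptges3-ps, held 3485 counts against 33154 for Ptges3, so reads of the 2 may not be fully told apart.

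Hpgd, the dehydrogenase that inactivates prostaglandin E2 (chromosome 8, 56294585 to 56321043), had 0 counts in all 12 libraries. Over 274848917 gene counts this allows a level of up to 0.0109 CPM, taking 3 counts as the limit for counting error only. No line comparison was possible for it.

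Slco2a1, the prostaglandin uptake carrier (chromosome 9, 102988712 to 103096002), was lower in both dOVA lines at a low level throughout. It had 0.618, 0.345 and 0.662 CPM in MeVa2.1.dOVA (39 counts), against 7.23, 7.97 and 4.18 CPM in MeVa2.1 (436 counts). It had 0.216, 0.427 and 0.416 CPM in MeVa2.2.dOVA (26 counts), against 2.54, 0.895 and 2.13 CPM in MeVa2.2 (116 counts). No libraries overlapped within either pair, and the dOVA lines overlapped with each other. Slco2a1 fell by 3.57 on the log2 scale in MeVa2.1.dOVA (SE 0.50, adjusted p = 0.0193) and fell by 2.38 in MeVa2.2.dOVA (SE 0.50, adjusted p = 0.0393). The difference between these 2 changes was -1.19 (interval -2.68 to 0.31, adjusted p = 0.730) and was not called. MeVa2.1 exceeded MeVa2.2 by 1.83 (SE 0.45, adjusted p = 0.0443), which was 1.49 (adjusted p = 0.120) without replicate 2 of MeVa2.2 and exceeded 0.05 in 9 of 12 cases (up to 0.173, without replicate 2 of MeVa2.1), all but replicate 3 of MeVa2.1, replicate 2 of MeVa2.1.dOVA and replicate 3 of MeVa2.2.dOVA. MeVa2.1.dOVA and MeVa2.2.dOVA differed by 0.64 (interval -0.47 to 1.75, adjusted p = 0.448). Leaving out single libraries kept the MeVa2.1.dOVA change between -3.81 and -3.34, with the adjusted p over 0.05 without any library of MeVa2.1.dOVA (up to 0.140, without its replicate 3) or replicates 1 or 2 of MeVa2.1. It was -3.34 (adjusted p = 0.0722) without both replicate 2 of MeVa2.1.dOVA and replicate 2 of MeVa2.2. For MeVa2.2.dOVA the change stayed between -2.71 and -2.11, with the adjusted p over 0.05 in 9 of 12 cases (up to 0.132, without replicate 1 of MeVa2.2.dOVA). The 3 that kept it under 0.05 left out replicate 2 of MeVa2.1.dOVA, replicate 3 of MeVa2.1 or replicate 2 of MeVa2.2.

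**Figure D3:**
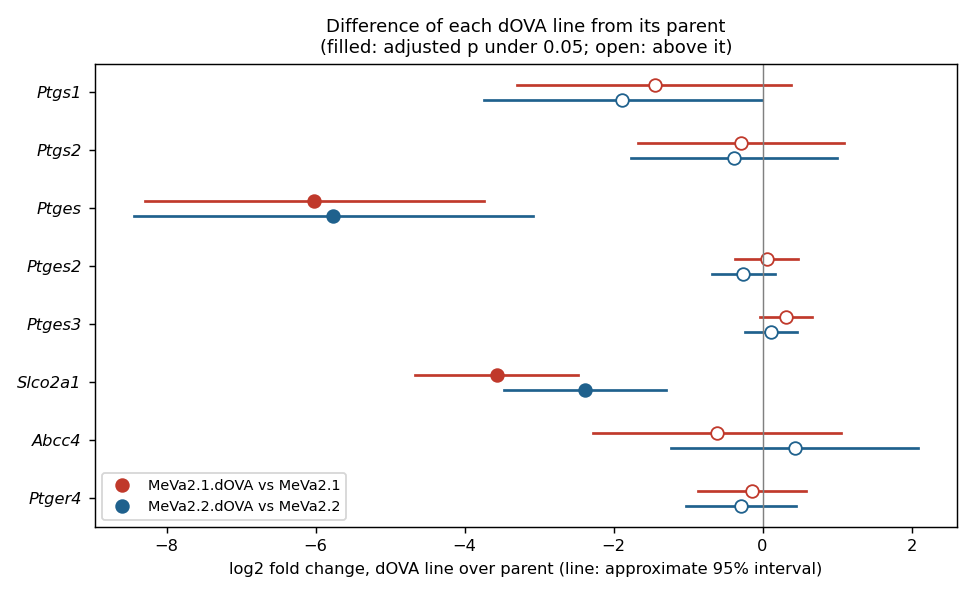
Log2 fold change of each dOVA line over its parent for 8 genes, all but Ptger2 and Hpgd, with approximate 95% intervals from the quasi-likelihood test. Filled points had an adjusted p under 0.05. Ptges and Slco2a1 are filled and negative in both pairs, and the Ptges value of MeVa2.2.dOVA rests on 2 counts. Ptges passed the filter on low counts through parental libraries alone, which favoured a lower dOVA value.

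Ptges and Slco2a1 were the 2 of 8 tested members, Ptger2 left out, that fell in MeVa2.1.dOVA, where 0.386% of tested genes fell. They were also the 2 of 8 that fell in MeVa2.2.dOVA, where 1.57% fell. Both were also called in both pairs with no filter on low counts. Ptges had passed that filter through parental libraries alone, which favoured a lower dOVA value, so its place in these counts is no independent support. For Slco2a1, 0 libraries of MeVa2.2.dOVA and 2 of MeVa2.1.dOVA were at the filter's level. Genes that fell in both dOVA lines made up 0.114% of tested genes, 16 in number. No member rose in either dOVA line, where 0.1% of tested genes rose in MeVa2.1.dOVA and 0.422% in MeVa2.2.dOVA. Libraries of MeVa2.1.dOVA and MeVa2.1 did not overlap for 3 members, against 21.0% of tested genes, and those of MeVa2.2.dOVA and MeVa2.2 for 2 members, against 17.3%. Mitochondrial mRNA, summed over 8 genes of which 2 or 3 had no count in a given line, moved with the first comparison, at 8921 to 10655 CPM in MeVa2.1.dOVA and 11963 to 12760 CPM in MeVa2.1, and its part in these results was not tested. In MeVa2.2.dOVA it was 10780 to 12480 CPM, against 12096 to 13330 CPM in MeVa2.2, which overlapped. Summed over 10 fibroblast markers, the level was 2195 to 4718 CPM in MeVa2.1.dOVA and 2695 to 4399 CPM in MeVa2.1, and 1622 to 6278 CPM in MeVa2.2.dOVA and 2886 to 6416 CPM in MeVa2.2. This sum was mostly collagen mRNA, with Col1a1, Col1a2 and Col3a1 at up to 1460, 3945.5 and 1254 CPM. Pdgfra, Pdgfrb, Postn and Thy1 reached 199.8, 146, 138 and 29.8 CPM, and Dcn, Lum and Fap at most 4.17, 5.52 and 4.54 CPM.

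Across the 12 libraries, Ptges and Slco2a1 correlated at r = 0.95 in log2 CPM, a value that follows largely from the line means, since after subtracting these it was 0.553. Ptgs1 and Ptges correlated at 0.782, and at 0.781 after subtracting line means. These are descriptions over libraries that share 4 lines.

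Abcc4, the exporter of prostaglandin E2 and cyclic nucleotides (chromosome 14, 118482692 to 118706219), varied mainly between libraries of the same line. It had 45.5, 78.6 and 54.3 CPM in MeVa2.1.dOVA, against 124, 108 and 37.3 CPM in MeVa2.1. It had 204, 217 and 47.3 CPM in MeVa2.2.dOVA, against 89.8, 230.4 and 23.0 CPM in MeVa2.2. The pairs overlapped, with log2 fold changes of -0.61 (interval -2.28 to 1.05, adjusted p = 0.823) in MeVa2.1.dOVA and 0.43 (-1.23 to 2.09, adjusted p = 0.803) in MeVa2.2.dOVA. MeVa2.1.dOVA over MeVa2.2.dOVA was -1.38 (-3.07 to 0.31, adjusted p = 0.275). Replicate 3 was the lowest library in MeVa2.1, MeVa2.2.dOVA and MeVa2.2, as it was for Ptgs2.

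Abcc4 and Ptgs2 varied together from library to library. Their log2 CPM correlated at r = 0.841 over the 12 libraries and at 0.95 after line means were subtracted, given as a description without a test. Replicate 3 was also the most deeply sequenced library of each line, at 34744387, 35627069, 33683165 and 26291546 gene counts in MeVa2.1.dOVA, MeVa2.1, MeVa2.2.dOVA and MeVa2.2, against 16181816 to 19204452 in the others. The fibroblast marker sum, mostly of collagen mRNA, was highest in replicate 3 of every line. In MeVa2.2.dOVA it was 6278 CPM in replicate 3 and 1622 and 1690 CPM in replicates 1 and 2. The part of depth or of these markers in the shared variation was not tested.

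**Figure D4:**
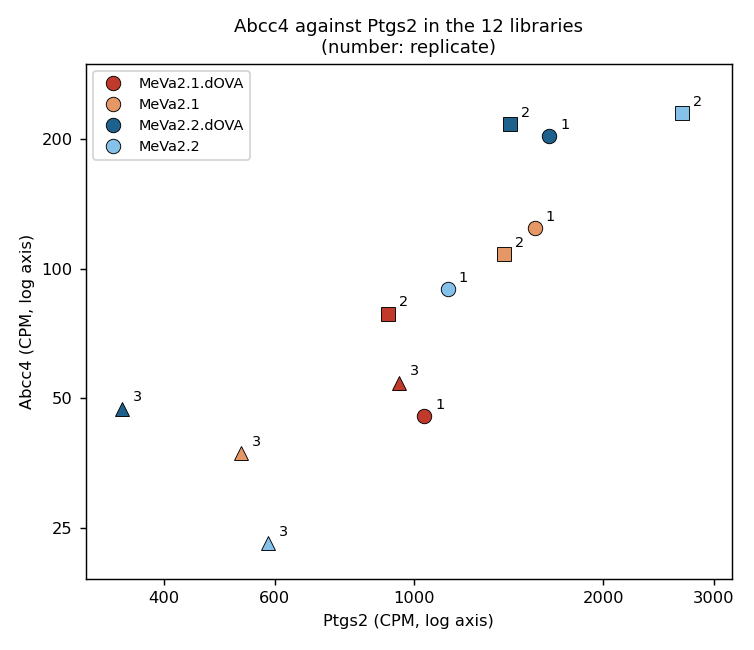
Abcc4 against Ptgs2 in the 12 libraries, both as CPM on log axes, coloured by line and numbered by replicate. Replicate 3 of MeVa2.1, MeVa2.2.dOVA and MeVa2.2 lies at the lower left, at 343 to 586 CPM of Ptgs2 and 23.0 to 47.3 CPM of Abcc4.

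Ptger2, a cAMP-raising receptor of prostaglandin E2 (chromosome 14, 44988195 to 45003820), was detected in MeVa2.1 and hardly elsewhere. It had 0 counts in all 3 libraries of MeVa2.1.dOVA, against 123, 19 and 56 counts (6.64, 0.989 and 1.57 CPM) in MeVa2.1. It had 0 counts in MeVa2.2.dOVA, against 1 count in replicate 2 of MeVa2.2 and 0 in its replicates 1 and 3. Taking 3 counts over the 3 libraries as the floor, Ptger2 in pooled counts was at least 61.5-fold lower in MeVa2.1.dOVA relative to MeVa2.1. The ratio of pooled counts over pooled gene totals, MeVa2.1 over MeVa2.2, was 168 (95% counting interval 29.8 to 6662). Both values cover counting error only and leave out the spread between libraries. Replicate 1 gave 123 of the 198 pooled MeVa2.1 counts, so single libraries such as replicate 2 would give a lower bound. No test of Ptger2 is given, since the filter admitted it through MeVa2.1 alone. An antisense gene, Gm17173, shares 246 exonic bases with Ptger2 on the opposite strand and had 167, 235, 45 and 75 counts in MeVa2.1.dOVA, MeVa2.1, MeVa2.2.dOVA and MeVa2.2. The strand setting of the counting is not given in the sources used here, so reads of the 2 in that stretch may not be told apart.

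Ptger4, the other cAMP-raising receptor (chromosome 15, 5206661 to 5244187), was higher in the MeVa2.1 origin, called between the dOVA lines but not the parents. It did not differ detectably with dOVA. It had 5.38, 2.58 and 4.55 CPM in MeVa2.1.dOVA, against 4.32, 4.43 and 4.91 CPM in MeVa2.1. It had 1.56, 1.65 and 1.54 CPM in MeVa2.2.dOVA, against 1.3, 2.26 and 2.13 CPM in MeVa2.2. Every library of the MeVa2.1 origin was above every library of the MeVa2.2 origin. Ptger4 was higher in MeVa2.1.dOVA than in MeVa2.2.dOVA by 1.42 on the log2 scale (SE 0.34, adjusted p = 0.0209), with the adjusted p between 0.0106 and 0.0966 over left-out libraries and above 0.05 without replicates 1 or 3 of MeVa2.1.dOVA or replicates 1 or 2 of MeVa2.2.dOVA. With no filter on low counts it was 0.0507, and Ptgs1 was the member called there (0.00458). Fitted to the 2 lines alone, the adjusted p of Ptger4 was 0.0719. Without replicate 2 of MeVa2.1.dOVA and replicate 2 of MeVa2.2 its log2 fold change was 1.66 (adjusted p = 0.00953). MeVa2.1 over MeVa2.2 was 1.27 (SE 0.34, adjusted p = 0.0597) and passed with the block (adjusted p = 0.0398). The dOVA lines differed from their parents by -0.14 (interval -0.86 to 0.58, adjusted p = 0.914) in MeVa2.1.dOVA and by -0.29 (-1.03 to 0.45, adjusted p = 0.695) in MeVa2.2.dOVA. Ptger4 shares 82 exonic bases with Ttc33 on the opposite strand, which had more counts, 7795 against 863 in all.

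Between origins, 1 of 8 members, Slco2a1, was higher in MeVa2.1 than in MeVa2.2, where 2.82% of tested genes were higher, and none was lower, where 1.66% were. With the replicate block 4 were higher, adding Ptgs1, Ptges and Ptger4, where 5.99% of tested genes were. Without overlap between the parental lines were 5 members, against 23.5% of tested genes. In the dOVA lines 1 member, Ptger4, was higher in MeVa2.1.dOVA than in MeVa2.2.dOVA, where 6.45% of tested genes were, and 2 with the block (Ptgs1 added), where 12.4% were. No member was lower, where 4.81% of tested genes were. Libraries of the dOVA lines did not overlap for 3 members, against 30.0% of tested genes. Each comparison between origins shares its libraries with the comparisons of dOVA lines with their parents.

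Set against the mean of the other 3 lines, MeVa2.1.dOVA differed in 0 of 8 members by edgeR, where 3.67% of tested genes were called. At an unadjusted p under 0.05 there were 2 of 8 members (15.9% of tested genes), and DESeq2 called 1, Slco2a1 (adjusted p = 0.0115, with 7.64% of tested genes called). The log2 difference was -1.56 for Slco2a1 (SE 0.42, adjusted p = 0.0716), 0.80 for Ptger4 (SE 0.26, adjusted p = 0.133), -2.38 for Ptges (SE 1.10, adjusted p = 0.321) and -0.37 for Ptgs2 (interval -1.52 to 0.77, adjusted p = 0.813). Whether the 2 dOVA differences differed was tested as well, and again edgeR called 0 of 8 members, where 0.0858% of tested genes were called, with 0 members at an unadjusted p under 0.05 (8.49% of tested genes) and 0 called by DESeq2 (1.94%). For Ptges that test had an SE of 9.94 and could show nothing.

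The rest of the pathway was read from 8 lists of 114 genes, of which 76 were tested. The lists were chosen with earlier results of these data known, so a share above that of all tested genes is no independent support. The tested genes include Mgll, which passed the filter through libraries of the MeVa2.1 origin alone. For any difference among the 4 lines, 32.9% of the 76 were called, against 14.2% of all tested genes. By list these were 4 of 14 genes for arachidonate release, 3 of 5 other prostanoid synthases, 3 of 3 other receptors, 2 of 7 breakdown enzymes and carriers, 0 of 1 in the lipoxygenase branch, 9 of 24 in the cAMP pathway, 2 of 15 regulators of Ptgs2 and 2 of 7 myeloid-attracting factors. In MeVa2.1.dOVA against MeVa2.1, edgeR called 0 of the 76, where 0.486% of tested genes were called, with 14 at an unadjusted p under 0.05 (11.2% of tested genes) and 4 called by DESeq2 (2.82%). With the replicate block, where 2.07% of tested genes were lower, 4 cAMP pathway genes were: Rapgef4, a cAMP-sensing exchange factor (-2.43 without the block, adjusted p = 0.0435 with it), the adenylate cyclase Adcy7, the cAMP-induced nuclear receptor Nr4a2 and the phosphodiesterase Pde4b. The cAMP list had a median log2 fold change of -0.41 over 24 genes, against 0.00 over all tested genes.

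In MeVa2.2.dOVA against MeVa2.2, 5 of the 76 fell and none rose, where 1.99% of tested genes were called. Ptgfr, the receptor for prostaglandin F2 alpha, was at 4.96 ± 3.01 CPM in MeVa2.2.dOVA and 38.2 ± 8.92 CPM in MeVa2.2 (-2.98, SE 0.59, adjusted p = 0.0326), and its binding partner Ptgfrn fell by 1.67 (SE 0.29). Slco3a1, an organic anion carrier that also takes prostaglandins, was at 0.163 ± 0.141 CPM and 6.79 ± 5.05 CPM in the same lines (-5.50, SE 0.83, adjusted p = 0.0121). The adenylate cyclase Adcy3 fell by 2.80 (SE 0.33) and Egfr, the epidermal growth factor receptor, fell by 3.88 (SE 0.85). By the test of the difference between the 2 dOVA differences edgeR called none of the 5 (adjusted p = 0.0895 for Slco3a1, the lowest). With the block it called Ptgfrn (0.0278), and DESeq2 called Slco3a1 (6.74e-05), Ptgfrn (0.00590) and Adcy3 (0.00889).

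MeVa2.1 and MeVa2.2 differed in 13 of the 76, all higher in MeVa2.1, where 4.48% of tested genes were called. Of 14 genes for arachidonate release 3 were higher, led by Mgll, the monoacylglycerol lipase (12.5 ± 5.27 CPM in MeVa2.1 and 0.158 ± 0.131 CPM in MeVa2.2, log2 6.18, SE 0.81), then Faah, the fatty acid amide hydrolase (3.16, SE 0.54), and Abhd6 (1.47, SE 0.34). Mgll was under the filter's level of 0.530 CPM in every library of MeVa2.2 and MeVa2.2.dOVA. It passed the filter through libraries of the MeVa2.1 origin alone, so it was bound to differ between origins. Its place in the counts of called genes is no support. Pla2g4a, the cytosolic phospholipase that feeds the cyclooxygenases, was abundant in all lines, at 439.7 ± 53.7 CPM in MeVa2.1.dOVA, 324 ± 80.2 in MeVa2.1, 267 ± 44.0 in MeVa2.2.dOVA and 277 ± 115 in MeVa2.2, and was called in no comparison by edgeR without the block. With the block it was called between the dOVA lines (adjusted p = 0.0462). The cAMP list had 7 of 24 genes higher in MeVa2.1, with a list median of 0.54 against -0.02 over all tested genes. Its largest differences were the nuclear receptor Nr4a3 (4.93, SE 0.77), the phosphodiesterase Pde4b (3.28, SE 0.51), Nr4a1 (2.77, SE 0.42) and Pde4d (2.31, SE 0.30), genes that cAMP is known to induce or that break it down. Also higher were the carbonyl reductase Cbr3 (1.10, SE 0.27), Slco3a1 (3.05, SE 0.62) and Zfp36l1, an RNA-binding protein of the family that destabilises Ptgs2 mRNA (0.70, SE 0.17). With the block, 2 of 3 other prostanoid receptors, 2 of 7 breakdown enzymes and carriers and 1 of 7 myeloid-attracting factors were called, against 0, 1 and 0 without it, and 9.51% of all tested genes were called with it. Among these breakdown enzymes, the prostaglandin reductase Ptgr1 was lower.

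MeVa2.1.dOVA and MeVa2.2.dOVA differed in 19 of the 76, where 11.3% of tested genes were called, and in 30 with the block, where 22.0% were. By list the block called 5 phospholipase and lipase genes, 5 synthases, 2 carriers, 10 cAMP pathway genes and 5 regulators of Ptgs2, against 3, 3, 1, 6 and 3 without it. Slco3a1 differed most (43.4 ± 18.3 CPM in MeVa2.1.dOVA and 0.163 ± 0.141 CPM in MeVa2.2.dOVA, log2 8.18, SE 0.87), and Mgll and Faah (3.41, SE 0.54) were higher as in the parental comparison, while Pla2g4c was lower (-2.06, SE 0.38). For Mgll, with 3 counts in MeVa2.2.dOVA, the ratio of pooled counts over pooled gene totals was 248 (95% counting interval 84.4 to 1203). This interval leaves out the spread between libraries. The edgeR test of the fitted difference gave an adjusted p of 4.54e-04, for a gene that the filter admitted through the MeVa2.1 origin alone. Of 5 other prostanoid synthases 3 were higher, Akr1c18 (3.19, SE 0.80), Cbr3 (2.46, SE 0.29) and Cbr1 (1.88, SE 0.38), enzymes able to reduce prostaglandins or other carbonyls. Ptgfr (3.52, SE 0.60) and Ptgfrn (2.59, SE 0.30) were higher too. The cAMP list had 6 of 24 genes higher and none lower, led by Nr4a3 (4.32, SE 0.79), Pde4b (3.44, SE 0.54), Nr4a1 (2.64, SE 0.42) and Adcy3 (2.21, SE 0.32). Among genes known to induce Ptgs2, Nfatc2 (4.69, SE 1.37) and Egfr (3.37, SE 0.85) were higher and the interleukin 1 receptor Il1r1 lower (-2.10, SE 0.42), and Csf1, the macrophage growth factor, was lower at 354 ± 61.0 CPM in MeVa2.1.dOVA against 1388 ± 604 CPM in MeVa2.2.dOVA (-1.96, SE 0.47).

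**Figure D5:**
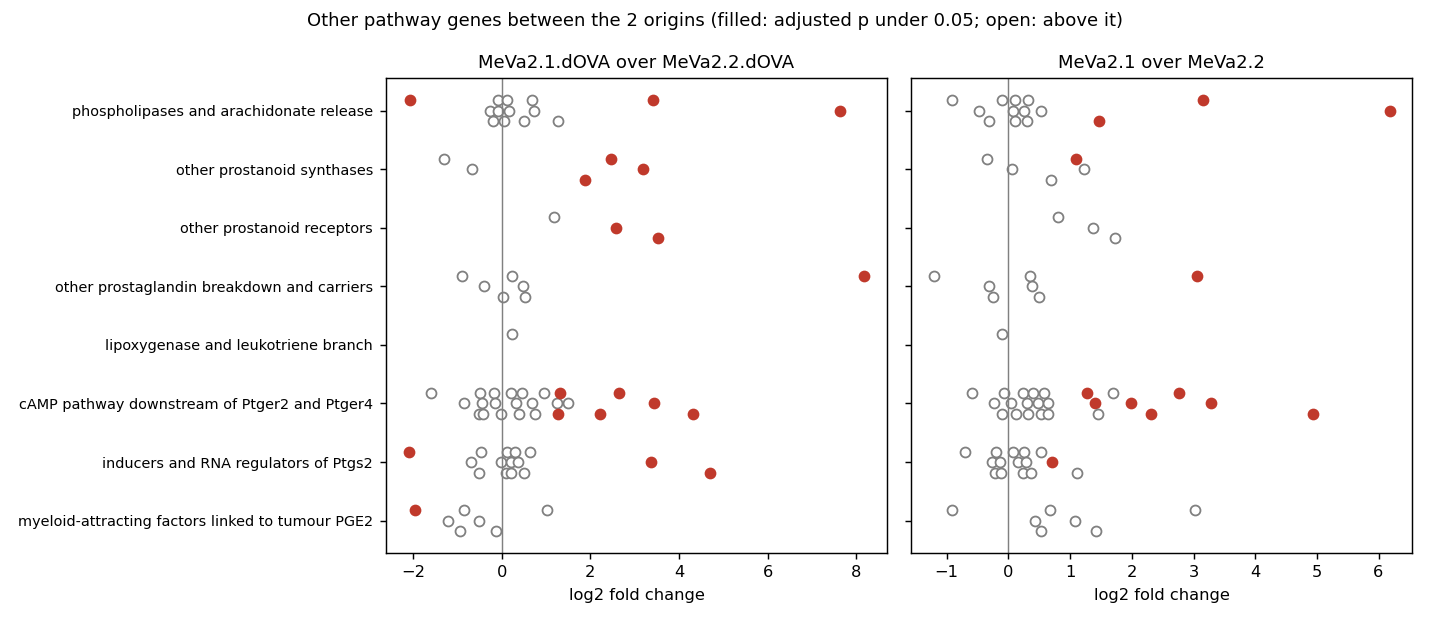
Log2 fold changes of the tested genes of the 8 pathway lists, MeVa2.1.dOVA over MeVa2.2.dOVA (left) and MeVa2.1 over MeVa2.2 (right), each point a gene. Filled points had an adjusted p under 0.05. All 13 filled points on the right are positive, and 3 of the 19 on the left are negative.

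Against the mean of the other 3 lines, MeVa2.1.dOVA differed in 7 of the 76, where 3.67% of tested genes were called. Mgll (4.29, SE 0.52), Slco3a1 (3.49, SE 0.47), Faah (2.17, SE 0.37), Cbr3 (1.44, SE 0.21), Ptgfrn (1.21, SE 0.22) and Adcy9 (0.97, SE 0.19) were higher, and Il1r1 was lower (-1.54, SE 0.36). None of the 7 was called between MeVa2.1.dOVA and MeVa2.1, with or without the block. Mgll, which passed the filter through libraries of the MeVa2.1 origin alone, was at 9.10 ± 6.28 CPM in MeVa2.1.dOVA and 12.5 ± 5.27 CPM in MeVa2.1. Slco3a1 was at 24.1 to 60.3 CPM in MeVa2.1.dOVA and 46.4 to 66.2 CPM in MeVa2.1, and Faah at 5.17 ± 1.70 CPM in MeVa2.1.dOVA and 5.18 ± 2.28 CPM in MeVa2.1. The lipoxygenase and leukotriene branch had 1 of 14 genes that passed the filter, Lta4h, the leukotriene A4 hydrolase, which edgeR called in no comparison, with or without the block. Ptgs2 inducers of the interleukin 1 family were at the detection limit, with 2 counts of Il1a and 1 of Il1b over all libraries.

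By pattern over the 12 libraries, the tested genes most like Ptgs2 in log2 CPM were Cnih4 (Pearson r = 0.939), Smim3 (0.924) and Caskin1 (0.919). Cnih4 itself spanned 58.3 to 87.2 CPM, a far narrower range than that of Ptgs2. Ptges, the member with the widest range of line means (6.03 on the log2 scale), was most like Ptprf, a receptor tyrosine phosphatase (0.982), Dchs1, a large cadherin (0.975), and Ccdc149 (0.974). These genes were picked as the closest of 13985 and the values are descriptions.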

How the data were processed

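Each deposited file lists raw counts of reads for 1 library, whole numbers with no scaling by the authors. GRCm38 is the build in the submitters' processing notes, which also name HTSeq 0.10.0, STAR 2.6.0c and DESeq2 1.30.1. Per the labels' protocols libraries were made with a strand-specific mRNA kit. Tally lines were left out of library sizes, and they held 35.8% to 40.0% of reads, mostly of low mapping quality, so genes with near-identical copies may be undercounted. Of 55471 identifiers 55144 had a symbol. Levels are CPM of the gene total, divided by exon length (GENCODE M21 union of exons) where genes are compared.

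The tests used edgeR 4.0.16 (with limma 3.58.1, under R 4.3.3). Genes passed filterByExpr (minimum count 10), libraries were scaled by TMM, and a quasi-likelihood fit over the 12 libraries gave every line its own mean (8 residual degrees of freedom). From it came 7 comparisons. P-values were Benjamini-Hochberg adjusted over 13985 genes and called under 0.05. The SE is implied by the F statistic and restates the test, as do the 95% intervals. The code was tested on simulated data. Alternatives were other scalings, no filter, DESeq2 1.42.0, a fit to 2 lines, a replicate block and left-out libraries.

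Same-numbered libraries deviated together from their line means. The correlations for replicates 1, 2 and 3 were 0.503, 0.488 and 0.534 in MeVa2.1.dOVA with MeVa2.1, 0.429, 0.405 and 0.328 in MeVa2.1 with MeVa2.2, and 0.105, 0.516 and 0.416 in MeVa2.1.dOVA with MeVa2.2.dOVA. All exceed 0.1, so block values are printed there. The pairing comes from these values and not from a label. No 2 replicates agreed within counting noise.

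Members, lists and tests were chosen with earlier results of these data known. All 10 members are named, as are up to 4 called genes per list and 2-group comparison by size of change, and the 3 genes most like Ptgs2 and like the member of widest range. Pla2g4a, Lta4h, Il1a, Il1b and the genes called only with the block were named outside that rule after their values were seen.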

Additional observations from a re-analysis of the deposited data

How the results depend on the processing

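The fold changes of Ptges and Slco2a1 in both dOVA lines kept their sign under every alternative run, but their calls did not. With either other scaling, no filter or DESeq2 both stayed called in both comparisons. The numbers of members that follow include Ptger2, whose calls are no support, since the filter admitted it through MeVa2.1 alone. Fitted to the 2 lines alone, MeVa2.1.dOVA against MeVa2.1 had 25 genes and 1 member called, MeVa2.2.dOVA against MeVa2.2 had 5 and 0, MeVa2.1 against MeVa2.2 had 397 and 1, and MeVa2.1.dOVA against MeVa2.2.dOVA had 1025 and 0, on 4 residual degrees of freedom. Without a filter the numbers of genes called were 272 in MeVa2.1.dOVA, 729 in MeVa2.2.dOVA, 969 between the parents (4 members), 161 for the difference of the dOVA differences and 836 for MeVa2.1.dOVA against the other 3 lines. DESeq2 called 394 (3 members), 974, 1207 (4 members), 272 and 1068 (1 member) genes in these comparisons, 2428 (2 members) between the dOVA lines and 3690 for any difference (likelihood ratio test). Scaled by library totals only, the parents differed in 1 member, Ptger2, the same as in the fit to the 2 lines alone. No scaling moved the median of all genes by more than 0.03 on the log2 scale.

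With the replicate block, fitted over all 12 libraries, 364 genes were called in MeVa2.1.dOVA against MeVa2.1, 1330 (5 members) between the parents, 3079 (2 members) between the dOVA lines, 118 for the difference of differences, 1108 for MeVa2.1.dOVA against the other 3 lines and 4340 for any difference. It called 1084 in MeVa2.2.dOVA against MeVa2.2, whose same-numbered correlations were 0.082, 0.640 and 0.521, so that the numbers are not taken as pairs there. Whether Ptger2 was called in MeVa2.1.dOVA depended on the setting, the block among them. Its p-values are not given, since the filter admitted it through MeVa2.1 alone. Beside Ptger2 and the member calls given with the results, the block changed no other.

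Leaving out each library in turn gave 1 to 83 genes and 0 to 2 members called in MeVa2.1.dOVA, 20 to 447 and 0 to 2 in MeVa2.2.dOVA, 279 to 775 and 0 to 3 between the parents, 796 to 2578 and 0 to 2 between the dOVA lines, 0 to 13 and 0 for the difference of differences, 244 to 671 and 0 to 1 for MeVa2.1.dOVA against the other 3 lines, and 1249 to 2974 and 3 to 5 for any difference. Without replicate 2 of MeVa2.1.dOVA and replicate 2 of MeVa2.2, chosen after seeing the data, 2 genes and 0 members were called in MeVa2.1.dOVA, 693 genes in MeVa2.2.dOVA, 0 members between the parents and 2 members between the dOVA lines. Where a result moved, the cause was not tested.

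Signs turned for differences that were not called. With those 2 libraries left out they were 0.10 for Ptger4 in MeVa2.1.dOVA, 0.41 for Ptgs2 in MeVa2.2.dOVA, 0.47 for Ptgs2 and 0.71 for Abcc4 between the parents, and -0.66 for Ptgs2 and 0.51 for Ptges in the difference of differences. With the replicate block they were 0.15 for Ptgs2 between the dOVA lines and -0.45 for Ptgs1 in the difference of differences. Over single left-out libraries, the ranges that crossed 0 were -0.35 to 0.11 for Ptger4 in MeVa2.1.dOVA, -0.77 to 0.41 for Ptgs2 and -0.06 to 1.48 for Abcc4 in MeVa2.2.dOVA, -0.70 to 0.47 for Ptgs2 and -0.82 to 0.71 for Abcc4 between the parents, and -0.66 to 0.12 for Ptgs2 between the dOVA lines. For the difference of differences they were -0.65 to 0.91 for Ptgs1, -0.69 to 0.48 for Ptgs2, -1.27 to 1.16 for Ptges and -0.06 to 0.39 for Ptger4, and for MeVa2.1.dOVA against the other 3 lines -0.07 to 1.15 for Ptgs1 and -0.07 to 0.02 for Ptges3. Depth limits Hpgd, Ptger2, Slco2a1 and Ptges most, which had 0, 199, 617 and 763 counts over all libraries.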
